A study of Ambystoma mexicanum with 8 samples.

Results

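Troponin is the calcium switch of the striated muscle thin filament, and 4 troponin transcripts were picked out among the 91843 contigs assembled from axolotl limb stumps. They were found by taking the entries of the study's own list of differing transcripts whose protein name begins with TNN. The study had added 1 to the FPKM values of that list. Each entry was therefore matched to the contig whose group means plus 1 equal both means printed for the entry, to within 1e-06. Each of the 4 entries matched exactly 1 contig. Protein names were at hand only for the 912 entries of that list, so further troponin contigs may be among the rest. The entries name troponin C of slow and cardiac muscle (TNNC1, contig TR1793 c0_g1_i1), troponin I of slow muscle (TNNI1, contig TR24605 c0_g1_i1), troponin T of slow muscle (TNNT1, contig TR16980 c0_g1_i1) and troponin T of fast muscle (TNNT3, contig TR28328 c0_g2_i2). All 4 were on that list because the study called a difference between the groups in the same libraries, with edgeR at an FDR under 0.05. The difference is therefore described here and not tested.

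In striated muscle, calcium released from the sarcoplasmic reticulum binds troponin C, which relieves the block that troponin I places on actin and myosin, while troponin T anchors the complex to tropomyosin. Slow and fast fibres use different genes for each subunit, and in mammals slow skeletal muscle shares its troponin C gene with the heart. The axolotl RefSeq annotation (assembly UKY_AmexF1_1) holds 8 troponin genes, 2 for troponin C, 3 for troponin I and 3 for troponin T. None of the entries was named for TNNC2, TNNI2, TNNI3 or TNNT2, so the fast forms of troponin C and I and the forms of troponin I and T that mammals keep for the heart were not analysed here. Every troponin T gene of that annotation lies close to a troponin I gene, TNNT1 directly beside TNNI3, TNNT2 with 1 protein-coding gene between it and TNNI1, and TNNT3 with 2 between it and TNNI2. The contigs were assembled without a genome, and no contig sequence or genome position was used. The names are best matches to proteins of pig, rabbit and rat, and slow and fast are used as those names give them.

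The libraries came from limb stumps of wild-type leucistic axolotls, each from a separate animal, collected 3 days after amputation. The 4 control limbs had been amputated 1 time. The 4 repeatedly amputated limbs came from age- and size-matched animals of the same parentage and had been amputated 6 times. Only limbs that had failed to regenerate entered the repeatedly amputated group, and the last cut was placed slightly proximal to the earlier plane. Libraries are called by their column names (Control1, Control3, Control4 and Control6, and MR14, MR2, MR5 and MR6), which give the group but not the animal. Summed expected counts ran from 16765785 to 18437103 over the control libraries and from 15596527 to 17980271 over the MR libraries. Levels are given as FPKM, fragments divided by contig length and library size, which the authors scaled between libraries with TMM (trimmed mean of M-values). Because the samples are bulk tissue, more muscle cells and more RNA per muscle cell cannot be told apart.

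All 4 troponins had higher mean levels in repeatedly amputated limbs, but 2 of the 4 libraries, MR5 and MR14, carried most of that signal. TNNC1, the calcium-binding subunit, stood at 0.782 FPKM in Control1, 0.968 in Control6, 5.308 in Control3 and 23.188 in Control4. It was at 10.769 FPKM in MR6, 12.747 in MR2, 146.154 in MR14 and 239.818 in MR5. Control4 lay above MR2 and MR6, so the groups overlapped. The group means were 7.56 ± 10.6 and 102 ± 111 FPKM (SD, n = 4 each), with the SD as large as the mean in both groups.

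TNNI1, the inhibitory subunit, had 0.280 FPKM in Control6, 0.311 in Control1, 2.070 in Control3 and 9.256 in Control4. Its level was 6.569 FPKM in MR6, 9.118 in MR2, 71.231 in MR14 and 111.277 in MR5. Control4 again stood above MR6 and narrowly above MR2. Mean levels were 2.98 ± 4.27 FPKM in the controls and 49.5 ± 50.9 FPKM after repeated amputation (SD, n = 4 each).

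TNNT1, the tropomyosin-binding subunit of slow fibres, was at 0.236 FPKM in Control1, 0.819 in Control6, 2.835 in Control3 and 16.805 in Control4. The repeatedly amputated limbs had 10.386 FPKM in MR6, 14.732 in MR2, 129.395 in MR14 and 185.633 in MR5. As for TNNC1 and TNNI1, Control4 exceeded both MR2 and MR6. The means were 5.17 ± 7.83 and 85.0 ± 86.8 FPKM (SD, n = 4 each).

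TNNT3, its counterpart in fast fibres, had 0.319 FPKM in Control6, 0.997 in Control1, 1.746 in Control3 and 15.325 in Control4. It was at 5.245 FPKM in MR6, 22.439 in MR2, 127.210 in MR14 and 158.299 in MR5. Here Control4 exceeded MR6 alone, since MR2 stood higher in TNNT3 than in any of the slow forms. The means were 4.60 ± 7.18 and 78.3 ± 75.8 FPKM (SD, n = 4 each).

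**Figure D1:**
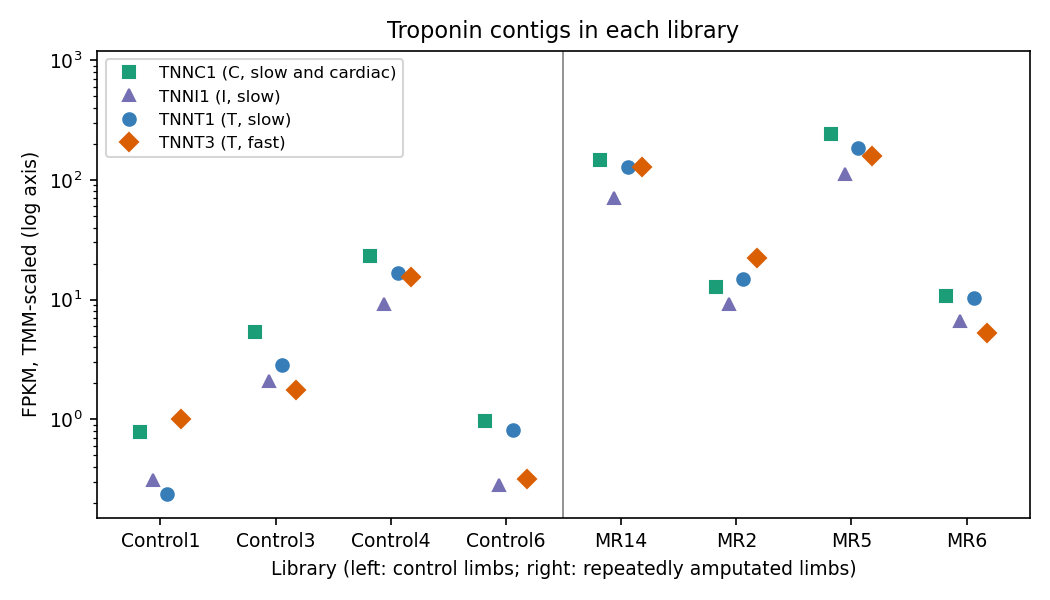
FPKM of the 4 troponin contigs (log axis) in each of the 8 libraries, control limbs on the left and repeatedly amputated limbs on the right, 1 point per contig and library. MR5 and MR14 lie above all other libraries for every contig, and Control4 lies above MR6 for all 4.

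Libraries ranked nearly alike for every troponin. MR5 was the highest and MR14 the next for all 4, and Control1 and Control6 were the lowest pair. The ranks that differed were those of MR2 against Control4 and of Control1 against Control6. MR5 held 58.6% of the summed FPKM of its group for TNNC1, 56.1% for TNNI1, 54.6% for TNNT1 and 50.5% for TNNT3. Control4 held between 76.7% (TNNC1) and 83.3% (TNNT3) of the control sum. The lowest levels rested on few fragments. TNNT1 had 5 expected counts in Control1 and 17 in Control6, against 3974 in MR5, and TNNI1 had 7 and 6 in those control limbs.

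For fold changes, expected counts were rounded and fitted with edgeR's quasi-likelihood model over the 32757 contigs that passed the filter on low counts, all 4 troponins among them. Log2 fold changes of repeatedly amputated over control limbs were 3.82 (SE 1.50) for TNNC1, 4.11 (SE 1.44) for TNNI1, 4.09 (SE 1.52) for TNNT1 and 4.14 (SE 1.52) for TNNT3. The fast form thus stood at 4.14 and the slow forms between 3.82 and 4.11. Each SE holds the spread between libraries, which the 4 contigs share, and does not measure the error of a difference between contigs. The 4 log2 fold changes had a median of 4.10, beside a median of -0.0065 over all contigs tested. At an FDR under 0.05 (Benjamini-Hochberg over all contigs tested) 0 of 4 were called, where 0.00611% of all contigs were called higher. All 4 were at an unadjusted p under 0.05, as were 6.47% of all contigs in that direction. With edgeR's exact test 0 of 4 were called against 0.885% of all contigs, and with DESeq2's Wald test 0 of 4 against 1.74%. For 0 of 4 did every repeatedly amputated limb exceed every control limb in CPM (counts divided by the TMM-scaled library size), a pattern found in 3.29% of all contigs. These counts were made on the libraries on which the entries were chosen and are given as a description. The study had listed all 4 with edgeR at an FDR under 0.05, a call that these tests did not reproduce. Its test within edgeR is not named, and why the calls differ was not tested.

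The size of the difference varied with the libraries included. Control4 was the only control limb above any repeatedly amputated limb at the 4 troponins. Without Control4 their median log2 fold change was 6.02, and without MR5 it was 3.31. Without both MR5 and MR14, a setting chosen after the values were seen, it was 1.32, with 0.63 for TNNC1, 1.38 for TNNI1, 1.26 for TNNT1 and 1.56 for TNNT3.

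**Figure D2:**
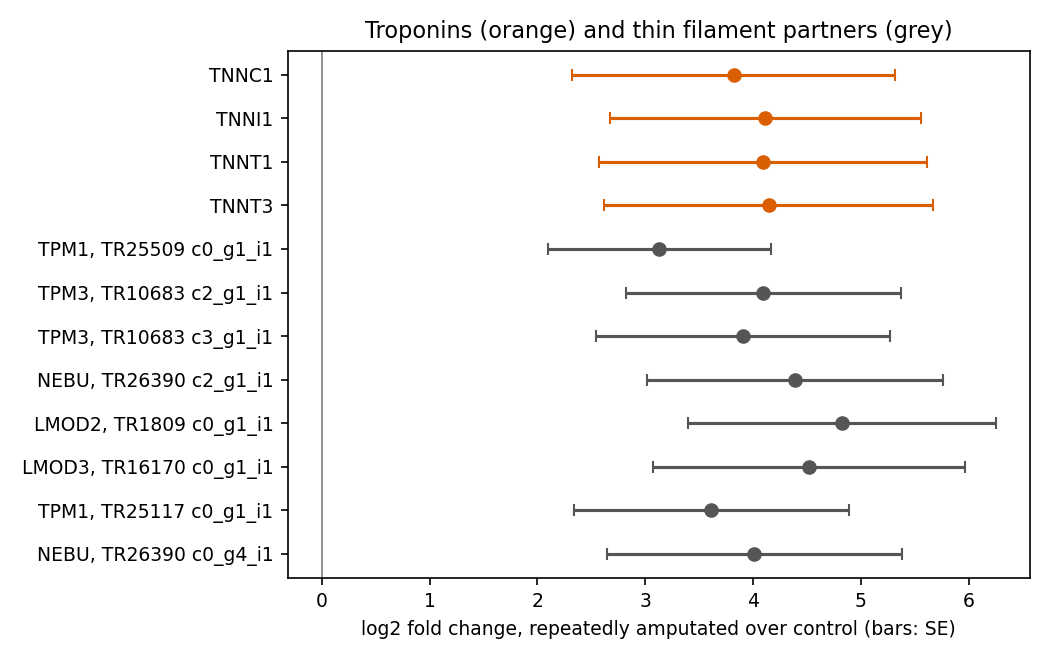
Log2 fold changes (x axis, repeatedly amputated over control limbs, edgeR) with bars of 1 SE for the 4 troponins in orange and the 8 tested contigs of thin filament partners in grey. The troponins lie between 3.82 and 4.14 and the partners between 3.13 and 4.83.

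Because FPKM is per length, the members could be compared within a library. TNNC1 had the highest FPKM of the 4 contigs in 6 of the 8 libraries, and TNNI1 the lowest in 5. The exceptions were Control1 and MR2, where the fast form TNNT3 was highest. The TNNT3 contig is only 1 isoform of its assembled gene. Another isoform, TR28328 c0_g2_i1, had 129.914 FPKM in MR14, 165.236 in MR5 and 18.757 in Control4. The TNNT3 entry had 127.21, 158.299 and 15.325 there. This order therefore describes the contigs and does not rank the genes. The highest and lowest members differed 2.05-fold in MR14 and MR6, 2.16-fold in MR5 and up to 4.22-fold in Control1. Without division by length the order was another one. In CPM, TNNC1 led in 2 libraries and TNNT3 in 5, since the TNNT3 contig is longer. Contig lengths implied by the ratio of counts to FPKM were about 2300 nt for TNNT3 (2193 to 2403 over libraries), 1329 nt for TNNI1, 1279 nt for TNNT1 and 1138 nt for TNNC1.

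The balance between slow and fast troponin T did not separate the groups. The log2 ratio of TNNT1 to TNNT3 in FPKM was -2.08 in Control1, 0.13 in Control4, 0.70 in Control3 and 1.36 in Control6. It was -0.61 in MR2, 0.025 in MR14, 0.23 in MR5 and 0.99 in MR6. For these contigs both extremes were thus control limbs. MR14, MR5 and Control4, the libraries richest in troponin, stood close to equal levels of the TNNT1 and the TNNT3 contig. The ratio leaves out the isoform TR28328 c0_g2_i1 of the TNNT3 gene. That isoform had 129.914 FPKM in MR14, 165.236 in MR5, 18.757 in Control4 and 1.298 in Control6. The ratio therefore does not give the balance of the slow and the fast gene, nor which limbs are extreme for it. The group means were 0.028 ± 1.49 for the controls and 0.16 ± 0.66 after repeated amputation (SD, n = 4 each), a difference of 0.13 that was smaller than either SD. This difference was -0.57 without Control1, -0.15 without MR6, 0.57 without Control6, and 0.59 when the counts of all contigs of the TNNT3 component were summed.

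The most extreme ratios rested on few counts. Of the counts of both troponin T contigs, TNNT1 held 5 of 43 in Control1, or 11.6% (exact 95% interval 3.89% to 25.1%). In Control6 it held 17 of 29, or 58.6% (38.9% to 76.5%). The repeatedly amputated limbs had far more counts, and there the share was 26.7% in MR2 (24.1% to 29.4%) and 52.4% in MR6 (47.6% to 57.3%). The intervals of MR2 and MR6 do not meet, so limbs of 1 group differed in the mix of slow and fast troponin T by more than counting error. These intervals cover counting error only, and RSEM's division of fragments among similar contigs adds to it.

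The ratios of TNNT1 to the other slow subunits covered a narrower range in the repeatedly amputated limbs than in the control limbs, whose extremes rested on few counts. TNNI1 over TNNT1 ran from -0.86 to -0.66 (log2) in these 4 limbs, a 1.15-fold range, while the control limbs ran from -1.55 to 0.40, a 3.85-fold range. The ends of the control range were Control6, with 6 and 17 expected counts, and Control1, with 7 and 5, while Control3 at -0.45 and Control4 at -0.86 stood close to the repeatedly amputated limbs. TNNC1 over TNNT1 ran from -0.21 to 0.37 in the repeatedly amputated limbs and from 0.24 to 1.73 in the controls, whereas TNNC1 over TNNI1 ranged 1.54-fold and 1.38-fold. Of the 6 pairs of members, TNNC1 over TNNI1 was the only one whose groups did not overlap. It was 1.32 in Control4, 1.33 in Control1, 1.36 in Control3 and 1.79 in Control6, against 0.48 in MR2, 0.71 in MR6, 1.04 in MR14 and 1.11 in MR5. The FPKM of TNNC1 relative to TNNI1 was therefore lower in every repeatedly amputated limb than in any control limb, with a mean difference of -0.62. The ratio rested on 15 and 7 expected counts in Control1 and on 18 and 6 in Control6. How often pairs of other contigs separate the groups in this way was not examined, so nothing is read from this about the subunits. This pair was singled out after the values were seen and is given without a test. With 1 added to each FPKM value, which weighs on the low levels of Control1 and Control6, the difference was -0.033.

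**Figure D3:**
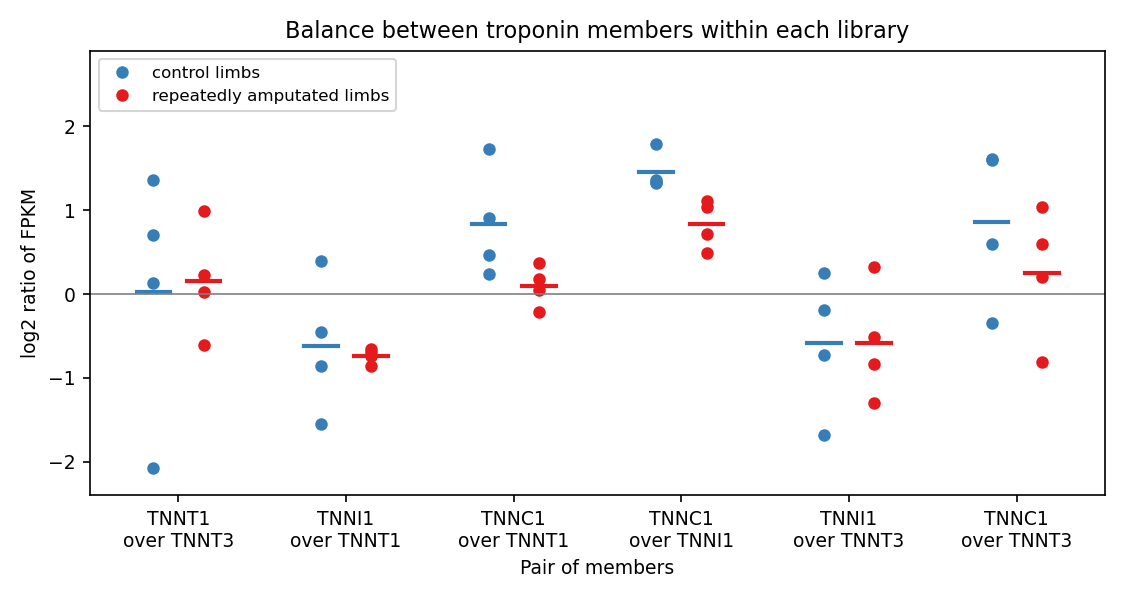
Log2 ratio of FPKM (y axis) for each of the 6 pairs of troponin members, 1 point per library, with control limbs in blue, repeatedly amputated limbs in red and bars at the group means. The groups are apart for TNNC1 over TNNI1 (1.32 to 1.79 against 0.48 to 1.11) and overlap for the other pairs.

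The TNNT3 component of the assembly holds 3 contigs, and only 1 of them is a named entry. The other isoform of the same assembled gene, TR28328 c0_g2_i1, had 0 expected counts in Control1, 47.60 in Control6, 154.23 in Control3 and 731.37 in Control4, where the TNNT3 entry had 38.26, 11.84, 73.11 and 613. In MR14, MR2 and MR5 the isoforms were nearly equal, at 4510.59 against 4532.08, 793.11 against 813.99 and 6198.34 against 6093.25. In MR6 they had 286.46 and 204.10. The isoforms were thus alike where counts were high and differed where they were low, with Control1's fragments of this pair all assigned to the entry.

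A further contig of the component, TR28328 c0_g1_i1, belongs to another assembled gene and is not among the listed entries. Its protein name is not known here, and whether it is a further stretch of TNNT3, another troponin or something else was not tested. It had 33.74 expected counts in Control1, 34.56 in Control6, 222.66 in Control3 and 1574.63 in Control4. After repeated amputation it had 181.44 in MR6, 1178.90 in MR2, 5730.33 in MR14 and 7856.41 in MR5. MR6 lay below both Control3 and Control4 at this contig. The log2 fold changes were 3.82 (SE 1.63) for the other isoform and 3.16 (SE 1.57) for this contig. At 0.05, 0 of these 2 were called by edgeR's quasi-likelihood or exact test or DESeq2's Wald test. Over all contigs these tests called 0.00611%, 0.885% and 1.74% higher. By the quasi-likelihood test 1 of the 2 had an unadjusted p under 0.05, as did 6.47% of all contigs in this direction. Both were taken because they share a component with an entry chosen on these libraries, so these counts are a description only. Neither contig matches an entry of the list. No other troponin entry has a second contig in its component.

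**Figure D4:**
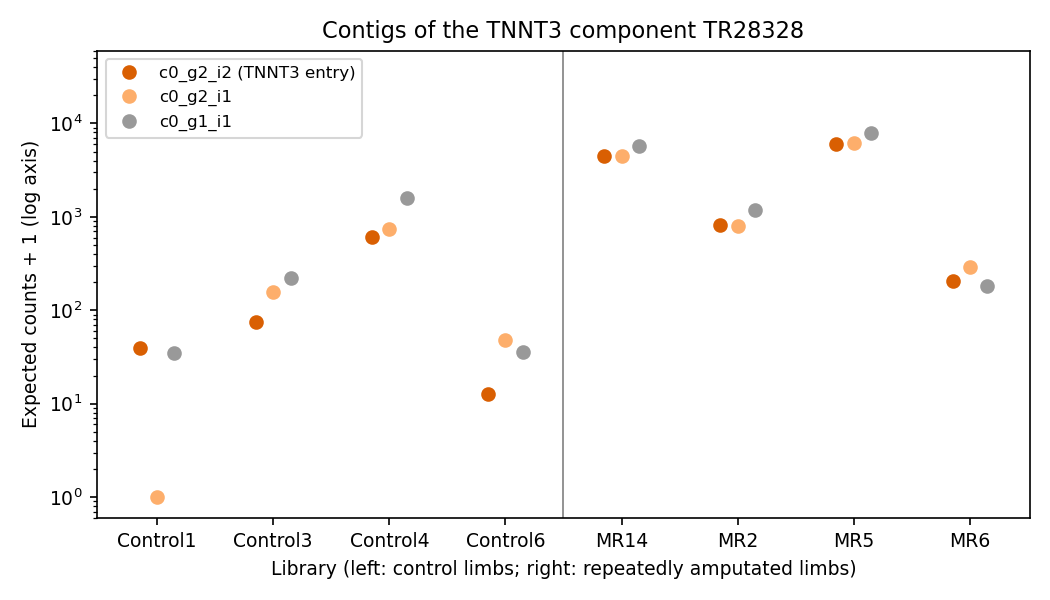
Expected counts plus 1 (log axis) of the 3 contigs of component TR28328 in each library, control limbs on the left and repeatedly amputated limbs on the right. The isoforms c0_g2_i2 and c0_g2_i1 coincide in MR14, MR2 and MR5 and are apart in Control1, where c0_g2_i1 has 0 counts.

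Troponin was then set beside its partners on the actin filament, taken from the same list by name. The 13 contigs comprise tropomyosin (TPM1 and TPM3), along which troponin sits, nebulin (NEBU), which runs the length of the thin filament, and the leiomodins (LMOD2, LMOD3) and tropomodulin (TMOD1), which act at its pointed end. Of these, 8 had enough counts to be tested. All 8 had a log2 fold change above 0, between 3.13 and 4.83 with a median of 4.05, and 0 had an FDR under 0.05 while 8 had an unadjusted p under 0.05. These entries were chosen on the same libraries, so their shared direction is no independent evidence. DESeq2's Wald test called 5 of the 8 and edgeR's exact test 0. Over all contigs tested, 6.47% had an unadjusted p under 0.05 in this direction, and the Wald and exact tests called 1.74% and 0.885%.

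Tropomyosin was the most abundant partner. TPM1 (TR25509 c0_g1_i1) stood at 39.1 ± 38.3 FPKM in the controls and 326 ± 295 FPKM after repeated amputation (SD, n = 4 each), and its log2 fold change of 3.13 (SE 1.03) was the lowest of the 8. In the lowest control library it still had 14.9 FPKM, where no troponin reached 1 FPKM. Muscle and non-muscle products of this gene cannot be told apart by name. TPM3, known as the tropomyosin of slow fibres in mammals, was assembled as TR10683 c2_g1_i1 and TR10683 c3_g1_i1, at 6.42 ± 8.76 and 5.86 ± 8.87 FPKM in control limbs. In repeatedly amputated limbs they stood at 106 ± 101 and 85.6 ± 82.2 FPKM (SD, n = 4 each), levels close to those of the troponins. The second TPM1 contig (TR25117 c0_g1_i1) was far lower, at 0.55 ± 0.652 and 6.45 ± 6.99 FPKM (SD, n = 4 each).

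The pointed-end proteins were low in every control limb. LMOD2 had 0.544 ± 0.574 FPKM in the controls and 14.8 ± 14.2 FPKM after repeated amputation (SD, n = 4 each), and its log2 fold change of 4.83 (SE 1.43) was the highest of the 8. LMOD3 had 0.437 ± 0.614 and 9.82 ± 9.33 FPKM (SD, n = 4 each). TMOD1 was under the filter, at 0.103 ± 0.148 and 1.40 ± 1.26 FPKM (SD, n = 4 each). Nebulin was split over 6 contigs of 1 component. Its most abundant contig, TR26390 c2_g1_i1, stood at 1.22 ± 1.62 and 24.4 ± 23.1 FPKM (SD, n = 4 each), and the 6 were headed by MR5 and MR14 in each case, as the troponins were.

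Upstream of troponin, the 25 entries for calcium release, storage and uptake (ryanodine receptors, triadin, calsequestrin, sarcalumenin, histidine-rich calcium-binding protein, sarcolipin and the calcium pump) included 8 tested contigs. Their log2 fold changes lay between 3.77 and 4.53 with a median of 4.27, and 0 of the 8 had an FDR under 0.05 while 8 had an unadjusted p under 0.05. The fast-fibre calcium pump SERCA1 (AT2A1, TR21008 c0_g2_i1), which returns calcium to the sarcoplasmic reticulum, stood at 3.50 ± 4.56 and 68.1 ± 69.1 FPKM (SD, n = 4 each). Sarcolipin (SARCO, TR13405 c0_g1_i1), a small inhibitor of this pump, was at 1.19 ± 1.82 and 25.4 ± 23.9 FPKM (SD, n = 4 each). Every repeatedly amputated limb exceeded every control limb for sarcolipin, from 5.97 against at most 3.90 FPKM. In CPM 2 of the 8 tested contigs of the list, and 4 of its 25 entries, showed such a separation, as did 0 of the 4 troponins and 3.29% of all contigs tested. Sarcalumenin (SRCA, TR24093 c0_g1_i1), a calcium-binding protein of the same membrane system, was at 0.90 ± 1.22 and 11.8 ± 11.1 FPKM (SD, n = 4 each), and its groups overlapped. With the exact test 3 of the 8 were called, against 0.885% of all contigs, and with the Wald test 7, against 1.74%. The 8 at an unadjusted p under 0.05 stand beside 6.47% of all contigs. These entries too were listed for a difference in the same libraries, so their counts are no independent evidence.

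Entries named for other slow or cardiac proteins and for other fast proteins gave a further view of fibre type. The slow or cardiac list has 20 entries, 10 of them tested, with a median log2 fold change of 4.41. The fast list has 9 entries, 7 tested, with a median of 4.34. In neither list did any contig have an FDR under 0.05, and all 10 and all 7 had an unadjusted p under 0.05. The exact test called 2 and 1 of them, against 0.885% of all contigs, and the Wald test 7 and 5, against 1.74%. An unadjusted p under 0.05 in this direction was found for 6.47% of all contigs. Calsequestrin 2 and SERCA1 also stand in the calcium handling list, and all of these entries were drawn from the list made on these libraries. The most abundant of the slow or cardiac list were CSRP3 (muscle LIM protein, TR13832 c0_g1_i1), at 5.36 ± 7.32 and 84.9 ± 78.8 FPKM, and MLRV (the regulatory myosin light chain of ventricle and slow muscle, TR9513 c0_g1_i1), at 3.37 ± 4.71 and 80.1 ± 89.9 FPKM. MYH7 (slow myosin heavy chain, TR5549 c17_g1_i1) was at 2.71 ± 3.42 and 63.7 ± 76.3 FPKM. In the fast list MYH4 (TR5549 c6_g1_i1) was highest, at 9.65 ± 13.7 and 211 ± 172 FPKM, with MYH2 (TR5549 c12_g1_i1) at 2.74 ± 3.93 and 48.8 ± 54.9 FPKM (SD, n = 4 each throughout). Of these heavy chain entries, 13 of the slow or cardiac and 3 of the fast list come from 1 component, TR5549, so the naming of single contigs as slow or fast is uncertain.

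The log2 ratio of the summed counts of the slow or cardiac list to those of the fast list was -1.18 in Control1, -1.85 in Control3, -1.87 in Control4 and -2.58 in Control6. It was -1.53 in MR6, -1.70 in MR5, -2.20 in MR14 and -2.85 in MR2. Among repeatedly amputated limbs MR2 was the lowest and MR6 the highest, the same places they took for TNNT1 over TNNT3. Among control limbs the extremes were exchanged, with Control1 the highest and Control6 the lowest. The places for TNNT1 over TNNT3 are those of the named contigs and leave out the isoform TR28328 c0_g2_i1. Without the myosin heavy chains, a setting chosen after the values were seen, MR2 had the highest of the 4 ratios, at -0.39, and MR14 the lowest, at -0.94. With or without the heavy chains, the lists did not place all limbs in the order given by the troponins.

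The contigs with a protein name whose profile over the 8 libraries was nearest to the mean profile of the 4 troponins were ranked by the SD of the difference in log2 CPM. The nearest was MLEC (TR20622 c0_g1_i1), named for the cardiac form of an essential myosin light chain, with an SD of 0.27. It was followed by MYH7 (TR5549 c14_g1_i1, SD 0.31), MYH7 (TR5549 c9_g1_i1, SD 0.31), AT2A1 (TR21008 c0_g2_i1, SD 0.35) and MYH7 (TR5549 c3_g1_i1, SD 0.38). Only entries of the study's list carry protein names, so the nearest named contigs could only be entries listed for a difference in these libraries. Among all tested contigs other than the troponins, these 5 ranked 3, 4, 5, 8 and 9, and contigs without a name held the other places up to 9. The median SD over all other tested contigs was 3.15, and the 4 troponins themselves lay between 0.17 and 0.58 from their own mean. These values describe profiles over libraries that share 1 strong gradient of muscle transcripts.

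Among the troponins, TNNC1 and TNNI1 had the closest profiles, with an SD of 0.35, and TNNT1 and TNNT3 the least close, with an SD of 0.93. From TNNC1, TNNI1 ranked 5 among the other 32756 tested contigs and TNNT1 ranked 16. From TNNT3, the fast form, the nearest troponin was TNNI1 at rank 23, while TNNC1 ranked 69 and TNNT1 ranked 100. The slow subunits were thus closer to each other than to the fast troponin T in these 8 libraries. The contig nearest to TNNT1, however, was the fast-fibre pump AT2A1 (SD 0.30), ahead of TNNI1 (rank 5) and TNNC1 (rank 9). MLEC was nearest to TNNC1 (SD 0.16) and to TNNI1 (SD 0.29). These distances include low counts, with 5 for TNNT1 in Control1 and 11.84 for TNNT3 in Control6. Those to TNNT3 also depend on RSEM's division between isoforms, 38.26 against 0 counts in Control1. Whether the order reflects fibre type was not tested.

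Troponin counts rose broadly with the total of the muscle entries, which includes them, but their share ran from 2.86% to 6.46% between libraries. MR2 had 1531 troponin counts against 1661 in Control4, although its muscle total was the larger. The list held 159 contigs named for proteins of the contractile apparatus, of its membranes and for other muscle proteins, troponins included. Their summed CPM, here by the unscaled library total, were 99.4 in Control1, 108 in Control6, 345 in Control3 and 1510 in Control4. They were 676 in MR6, 3385 in MR2, 11763 in MR14 and 16155 in MR5. MR6 lay below Control4 here too. Of these muscle counts the 4 troponins made up 3.55% (exact 95% interval 2.75% to 4.50%) in Control1, 4.72% (4.21% to 5.27%) in Control3, 6.27% (5.98% to 6.57%) in Control4 and 2.92% (2.19% to 3.80%) in Control6. In the repeatedly amputated limbs they made up 6.07% (5.97% to 6.19%) in MR14, 2.86% (2.72% to 3.01%) in MR2, 6.25% (6.16% to 6.34%) in MR5 and 6.46% (6.03% to 6.91%) in MR6. The groups overlapped, at 4.36 ± 1.48% and 5.41 ± 1.71% (SD, n = 4 each). MR2 stood apart from its group, with less than 3% of muscle counts in troponins although its muscle total was above that of every control limb. Without MR2 the difference between the groups was 1.90 percentage points in place of 1.05, and without Control4 it was 1.68. Without Control6 it was 0.57, and without both MR5 and MR14 it was 0.30.

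**Figure D5:**
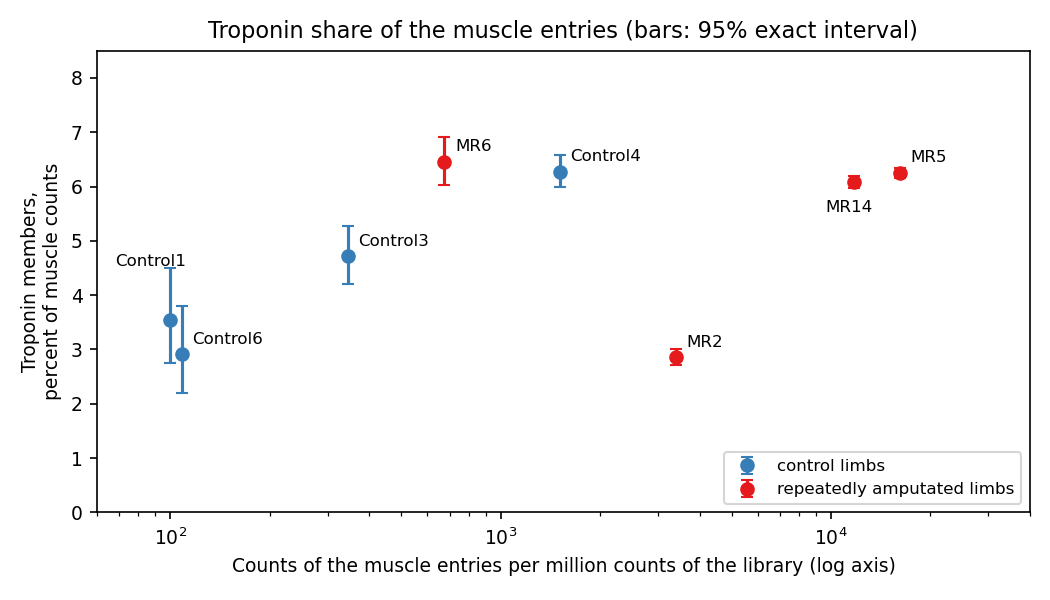
Counts of the 4 troponins as a percentage of the counts of all 159 muscle entries (y axis) against the summed CPM of the muscle entries by the unscaled library total (x axis, log), 1 point per library with exact 95% intervals. MR14, MR5, MR6 and Control4 lie between 6.07% and 6.46%, and MR2 lies at 2.86%.

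Entries of the same list named for other tissues were also summed, in CPM by the unscaled library total as for the muscle entries. Each of them was listed for a difference between the groups. The 11 cartilage entries (such as collagen II, collagen IX and aggrecan) summed to 1.37 to 2.33 CPM in control limbs. In repeatedly amputated limbs they summed to 10.9 to 175 CPM. The highest value was in MR5, the library with the most troponin, but MR14, the next in troponin, had 19.1 CPM, below MR2 at 21.8. The 8 entries for immunoglobulins and their receptor summed to 560 to 921 and 149 to 274, and the 2 epidermal keratins to 884 to 3970 and 104 to 221. These 2 keratins do not stand for epidermis as a whole. Other entries of the study's list that may come from epidermis went both ways, with TGM1, LAMA3 and LAMB3 higher after repeated amputation and TGM3 lower. Of the 11 cartilage entries 3 were at 0 counts in all 4 control limbs, while no immunoglobulin or keratin entry was at 0 in any control limb. A list of 10 entries held muscle regulators and receptors, among them myogenin and subunits of the acetylcholine receptor, and also desmin. It summed to 3.09 to 120 CPM in control limbs and 74.0 to 980 in repeatedly amputated limbs, again with Control4 above MR6. Desmin had far higher mean FPKM in the study's list than the others of these 10. The sum therefore does not stand for the regulators and receptors. Apart from myogenin and the entry SIX1B, these entries are also counted among the muscle entries. Of the 159 muscle entries, 11 were at 0 counts in all 4 control limbs and 0 in all 4 repeatedly amputated limbs. Because the entries were listed as higher or lower in these same libraries, the group in which zeros fall followed from that choice. The directions and zeros given here are therefore no independent evidence. The part of these tissues in the troponin levels was not tested.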

How the data were processed

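RNA of 8 axolotl limb stumps was sequenced by the study (paired-end, TruSeq v2, base calling with CASAVA 1.8.2 per the submitters' processing notes). The authors assembled the reads with Trinity, named contigs with Trinotate and deposited RSEM expected counts, not normalized, and FPKM values scaled with TMM. Versions of these other tools are not given in the sources used here. Of the deposited expected counts 91.5% were within 0.001 of a whole number, and all were rounded for testing. Fits used edgeR 4.0.16 (filterByExpr, TMM, quasi-likelihood with robust estimation, Benjamini-Hochberg over all 32757 contigs tested). The SE of a fold change is its size over the root of F, and log2 CPM used a prior count of 2. Alternatives used DESeq2 1.42.0 and limma 3.58.1 on log2(FPKM + 1) and log2(FPKM + 0.1).

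Columns were assigned to groups by name, and no column was left out. The members and lists were chosen with earlier results of these data known. Named genes are the 4 troponins, the thin filament entries, up to 3 entries with the highest mean FPKM of each other list, and the 5 named contigs with the nearest profile. The other contigs of the TNNT3 component are outside this rule and were chosen after their values were seen. Of 912 entries of the study's list, 892 matched 1 contig. The tests were tested on simulated data for 32757 contigs with 200 changed 4-fold, where the quasi-likelihood test recovered 60% with 7 false calls, edgeR's exact test 78.5% with 63 and DESeq2's Wald test 79% with 92. The changed contigs were drawn only from those with higher mean counts, so these rates do not hold for contigs of low counts. Contigs were simulated independently of each other, without the gradient of muscle transcripts that the real libraries share. The rates therefore need not hold for the muscle entries at any count. With 0 contigs changed, the quasi-likelihood test made 0 false calls, the exact test 25 and the Wald test 42. The Wald test gave no adjusted p for 7059 contigs, none of them a troponin, and these count as not called. Exact 95% intervals are Clopper-Pearson intervals and cover counting error only. The ratios, shares and levels were given no test, and the fold changes listed beside the study's entries were not used.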

Additional observations from a re-analysis of the deposited data

Results flagged for a closer look

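In 9 of 44 groups of 4 libraries that were screened, 1 library stood apart from the other 3 by a gap, relative to the group's range, above Dixon's 95% critical value for 4 values. The rate of about 1 in 20 by chance holds for normally distributed values only. FPKM and summed CPM (by the unscaled library total) were screened without logs, where high values are flagged more readily, so the 9 are not read as an excess over chance. Control4 stood above the other control limbs for TNNT1 (16.805 FPKM), TNNT3 (15.325 FPKM) and the unlisted contig TR28328 c0_g1_i1 of the TNNT3 component (40.563 FPKM). It also did so for the summed thin filament entries (268 CPM) and for muscle regulators and receptors with desmin (120 CPM). Control6 had the highest TNNC1 over TNNI1 ratio of the control limbs (log2 1.79), on 18 and 6 expected counts. MR2 had the lowest share of troponins among muscle counts (2.86%) of the repeatedly amputated limbs, on 1531 troponin counts. MR5 had the highest summed cartilage entries (175 CPM) and Control3 the highest epidermal keratins (3970 CPM). Of these values 5 are from Control4 and are not independent. The cause of each was not tested.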

How the results depend on the processing

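The log2 fold changes of all 4 troponins were above 0 under each of the 20 alternatives, and 0 of 4 were called at an adjusted p under 0.05 under any of them. Leaving out each library in turn gave medians of 3.31 (without MR5) to 6.02 (without Control4) for the troponins and 2.84 to 5.60 for the other contigs of the TNNT3 component, with 0 of those called. For the lists these ranges were 3.40 to 5.90 (thin filament), 3.55 to 5.57 (calcium handling), 3.51 to 6.06 (slow or cardiac) and 3.53 to 6.28 (fast). The filter on low counts was applied anew in each fit with libraries left out. The median of a list there can therefore cover other contigs than in the main fit. Without both MR5 and MR14 the medians were 1.32 for the troponins (TNNC1 0.63, TNNI1 1.38, TNNT1 1.26, TNNT3 1.56), 1.86 for the thin filament, 2.34 for calcium handling, 1.68 for slow or cardiac and 1.55 for fast entries. On log2(FPKM + 1) limma gave 1.91 for calcium handling, where the added 1 compresses low values. DESeq2's Wald test called 5 thin filament, 7 calcium handling, 7 slow or cardiac and 5 fast entries, and edgeR's exact test 0, 3, 2 and 1. Over all contigs 4 were called, against 387 by the exact test, 768 by the Wald test, 11 and 9 by limma (1 and 0.1 added), 21 with no filter, 9 with a summed minimum of 10 counts, 2 after summing components, 14 without Control1, 2 without MR5 and 15 without MR5 and MR14. The causes of these differences between settings were not tested. The number of troponins without overlap was 0 to 4 over the libraries left out, with 4 without Control4 and 1 without MR6. The share of all contigs without overlap was not taken for these smaller sets of libraries, so nothing is read from these counts. The difference in log2 TNNT1 over TNNT3 ran from -0.57 to 0.57 over the libraries left out and from 0.041 to 0.59 over the other settings. Among the 4 contigs, with TNNT3 as 1 isoform only, TNNC1 had the highest level in 6 libraries in FPKM and in 2 in CPM. The difference in troponin share ran from 0.57 to 1.90 percentage points over the libraries left out and was 0.30 without both MR5 and MR14. TNNC1 over TNNI1 ran from -0.71 to -0.50 over the libraries left out and was -0.033 with 1 added to FPKM. No paired analysis was made, since each library came from a separate animal and the columns name no animal. Low counts in Control1 and Control6 limit every ratio there.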
